A study of Mus musculus with 9 samples.

Results

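Cells make cholesterol from acetyl-CoA through the mevalonate pathway, which leads to farnesyl and squalene intermediates and then through a chain of ring-closing, demethylating and reducing steps to the finished sterol. Fatty acids are built from the same acetyl-CoA pool, and the 2 pathways share a control system. The transcription factors SREBP-1 and SREBP-2, encoded by Srebf1 and Srebf2, sit in the endoplasmic reticulum bound to the escort protein SCAP, are held there by the INSIG proteins when sterols are plentiful, and are cut free to act in the nucleus when sterols run short. The LXR receptors act in the other direction, since oxidised sterols switch on their target genes, which move cholesterol out of cells or lower its uptake. Epithelial cells of the gut both take up lipid and make their own.

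The genes described here are 36 genes of cholesterol and fatty acid synthesis and its control, chosen by name and found in the deposited expression table through their Ensembl identifiers and GENCODE M21 symbols. All 36 were among the 48795 identifiers of the table, each symbol was found once, and all 36 passed the filter on low values, as did 12741 genes in all. They comprised 7 genes of the mevalonate steps, 11 of the squalene and sterol steps, 6 SREBP factors and regulators (the sterol carrier Stard4 among them), 9 genes of fatty acid synthesis and desaturation, and 3 LXR targets. The cultures were mouse colon organoids, epithelial cell cultures grown in 3 dimensions, titled as stem cells by the submitters. The study places its FICZ experiment in WENR, a medium with Wnt3a that it calls regenerative, and gives the mice as C57BL/6. The cultures were kept for 4 h with 5 nM FICZ, a tryptophan-derived ligand of the aryl hydrocarbon receptor (AHR), or with its solvent DMSO. Wild type (WT) cultures were compared with cultures labelled AHR KO, which according to the study's methods came from VilCre Ahr fl/fl mice, in which a Cre driven by the villin promoter removes a floxed Ahr gene from the gut epithelium. RNA sequencing gave 2 WT DMSO libraries (replicates 2 and 3), 3 WT FICZ libraries (1, 2 and 3), 2 AHR KO DMSO libraries (1 and 3) and 2 AHR KO FICZ libraries (1 and 3). Ages were not given in the sources used here, and the methods speak of biological replicates without saying which cultures came from which animal, so p-values measure the spread between these samples, which may be partly technical.

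The values are normalised counts, and the step between low values corresponded to depths of 21.6 to 30.2 M reads a library. Cyp1a1, the best known AHR target, was at 0 to 5.84 normalised counts in the WT DMSO libraries and at 6987 to 7958 in the WT FICZ libraries, against 0 to 2.93 and 100.3 to 139 in the AHR KO libraries. Its rise with FICZ passed in AHR KO too (log2 change 5.91 ± 0.78, limma adjusted p = 0.00209), beside 11.50 ± 0.71 in WT. The AHR KO cultures were therefore not without a Cyp1a1 response. Ahr itself was higher in the AHR KO libraries (1346 to 1443) than in the WT libraries (783 to 858), but a count over the whole gene does not test the removal of an exon. The 11 epithelial markers summed to 300775 to 327761 normalised counts in every library, whereas the 6 fibroblast markers together stayed at or under 4.64 and the 3 endothelial markers at or under 5.27. Of 6 immune markers, Cd68 stood at 475 to 712 and the other 5, among them the pan-leukocyte gene Ptprc at 0 in all 9 libraries, at or under 1.09. In bulk libraries, fewer cells of a type and less RNA per cell cannot be told apart.

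Promoters are shown first for 4 members that the results below turn on: Hmgcs1 and Hsd17b7, which fell with FICZ in WT organoids, and Fasn and Tm7sf2, which rose in both genotypes. Each window is RefSeq sequence of build GRCm38.p6, from 250 bases before to 50 bases after a RefSeq start, printed 5′ to 3′ on the strand of the gene. The windows lie at chr13:119690101-119690400 (plus strand, Hmgcs1), chr1:169969156-169969455 (minus strand, Hsd17b7), chr11:120824498-120824797 (minus strand, Fasn) and chr19:6067801-6068100 (minus strand, Tm7sf2). The GENCODE gene matched for Tm7sf2 begins at chr19:6068373, so its window lies inside that gene and does not hold that start. Capitals mark, on either strand, the core of a sterol regulatory element (TCACNCCAC), the CCAAT box bound by NF-Y and the core of the AHR response element (GCGTG).
Hmgcs1: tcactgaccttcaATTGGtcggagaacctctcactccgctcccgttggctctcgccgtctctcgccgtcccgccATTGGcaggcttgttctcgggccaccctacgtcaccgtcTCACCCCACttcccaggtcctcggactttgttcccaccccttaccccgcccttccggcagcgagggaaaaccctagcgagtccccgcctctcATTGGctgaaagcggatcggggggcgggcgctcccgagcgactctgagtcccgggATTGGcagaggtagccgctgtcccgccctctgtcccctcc
Hsd17b7: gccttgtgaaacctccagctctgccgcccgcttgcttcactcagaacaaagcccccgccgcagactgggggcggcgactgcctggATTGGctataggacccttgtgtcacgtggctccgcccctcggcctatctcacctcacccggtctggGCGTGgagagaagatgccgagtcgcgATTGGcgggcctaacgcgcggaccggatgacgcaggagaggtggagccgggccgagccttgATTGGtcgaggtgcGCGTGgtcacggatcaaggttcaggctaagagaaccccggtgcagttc
Fasn: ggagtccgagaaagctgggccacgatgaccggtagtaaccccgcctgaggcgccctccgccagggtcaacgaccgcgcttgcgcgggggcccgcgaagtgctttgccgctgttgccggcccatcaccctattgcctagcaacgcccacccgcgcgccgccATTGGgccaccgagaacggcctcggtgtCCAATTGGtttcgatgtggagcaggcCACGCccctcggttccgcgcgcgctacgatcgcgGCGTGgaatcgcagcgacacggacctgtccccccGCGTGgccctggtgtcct
Tm7sf2: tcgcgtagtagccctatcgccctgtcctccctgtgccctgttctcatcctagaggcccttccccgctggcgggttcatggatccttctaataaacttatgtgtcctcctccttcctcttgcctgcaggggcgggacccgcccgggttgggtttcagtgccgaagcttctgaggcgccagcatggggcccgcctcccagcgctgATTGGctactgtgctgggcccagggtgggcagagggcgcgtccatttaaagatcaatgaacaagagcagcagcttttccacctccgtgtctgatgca

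The sterol element core was found in the Hmgcs1 window, where its first base lies at -137 from the start, and in no other member window, that is in 2.78% of the 36 windows available for 28 members against 1.24% of all 32851 windows. CCAAT was present in 63.9% of the member windows and 37.4% of all windows, and GGGCGG, the letters bound by the Sp1 family, in 77.8% and 35.7%. CACGTG, an E-box, was present in 19.4% against 7.15%, and GCGTG in 55.6% against 32.4%. The member windows were richer in GC, with a median of 62.5% against 52.7%, and the shares were not adjusted for it. CCAAT matches on opposite strands can overlap, as a pair in the Fasn window does. GCGTG occurred in windows of members that fell in WT (Hsd17b7, Cyp51, Idi1), of Fasn and Scap, which rose, and of members that did not pass the test, such as Insig1. The Hmgcs1 and Tm7sf2 windows held none, which says only that these letters are not in those windows.

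The organoids expressed nearly the whole pathway. Scd2, a stearoyl-CoA desaturase that makes monounsaturated fatty acids, had the highest level of the 36 at 20840.1 normalised counts per kb of its longest transcript, averaged over the 9 libraries, and took 0.470% of a library's counts. Next came Idi1 (4607 per kb), which isomerises isopentenyl diphosphate, the sterol methyl oxidase Msmo1 (3996), Hmgcs1 (3388), which makes HMG-CoA at the head of the mevalonate pathway, and Cyp51 (3328), the lanosterol demethylase. Hmgcs1 and Cyp51 overlapped in their ranges over libraries, as did many neighbours further down. Tm7sf2, one of the sterol C14 reductases, and Fads1 were the lowest of the biosynthetic genes, at 234 and 235 per kb. The LXR targets stood lowest, with Mylip, a ubiquitin ligase for lipoprotein receptors, at 39.6, Abcg1 at 7.26 and Abca1, the main cholesterol efflux pump, at 1.09 normalised counts per kb. Levels per kb are set against the longest annotated transcript, which may not be the one expressed.

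**Figure D1:**
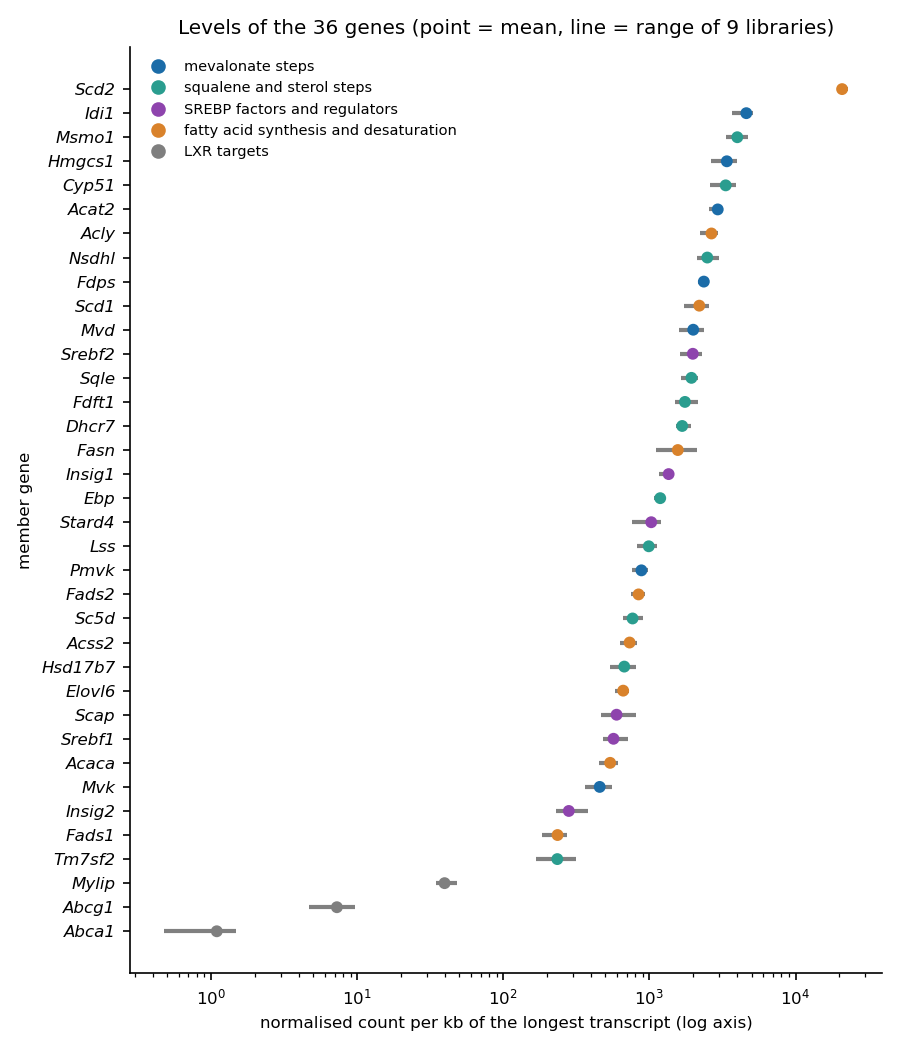
Normalised counts per kb of the longest transcript (log axis) for the 36 genes, ordered by their mean over 9 libraries. Points are means coloured by role and lines span the lowest to the highest library. Scd2 stands apart at 20840.1 per kb and the 3 LXR targets lie lowest, at 39.6 per kb and under.

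In WT organoids more members fell than rose with FICZ. Of the 36 genes, 17 passed the test (adjusted p below 0.05, limma across all genes), 5 of them higher and 12 lower, where 30.8% of all genes tested passed, 15.1% higher and 15.7% lower. Among the 18 genes of the mevalonate and sterol steps, 9 fell and 2 rose, and the median log2 change of the 18 was -0.22, beside -0.01 over all genes. With a trend on GC content and transcript length removed from each library, 5 of the 18 fell and 1 rose. In that fit 19.3% of all genes passed, 9.58% lower. The members that fell did so by 15.1% to 26.7%. Those that rose were Tm7sf2, Scap, Fasn, Srebf2 and Mvk. Among the 11 epithelial markers, the stem cell gene Lgr5 was lower with FICZ in WT (490.5 to 547 against 1200.0 and 1271) and Cdx2 higher, the other 9 did not pass, and their part in these changes was not tested. The count was 9 without WT DMSO replicate 2 (15.6% of all genes) and 10 without WT DMSO replicate 3 (17.8%), and between 16 and 20 without any 1 of the other 7 libraries. Under the 21 other settings tried, 6 of the 17 calls held throughout (Hmgcs1, Fdft1, Cyp51, Hsd17b7, Tm7sf2 and Scap), and 10 were lost when 1 of the WT DMSO libraries was left out, Sqle and Idi1 also without WT FICZ replicate 1 and Idi1 without replicate 3.

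The head of the pathway was among the clearest. Hmgcs1 stood at 13871 and 13450.4 normalised counts in the WT DMSO libraries and at 9086, 10848 and 10419.5 in the WT FICZ libraries. All 3 treated libraries lay below both controls, replicate 1 lowest, and the log2 change was -0.44 ± 0.08 (SE, adjusted p = 0.00303), a fall of 26.1%. In the AHR KO libraries Hmgcs1 was at 13186 and 12508 with DMSO and 11815 and 10431 with FICZ, which also did not overlap. The log2 change of -0.21 ± 0.09 there did not pass (adjusted p = 0.118), although it did with a block for the replicate number. Idi1 fell in WT as well (-0.31 ± 0.09, adjusted p = 0.0227), a call lost with the GC and length trend removed (-0.16, adjusted p = 0.14).

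The other mevalonate genes went different ways. Mvk, the mevalonate kinase, read 996 and 1040.0 with DMSO and 1144, 1324 and 1242 with FICZ in WT, and 858 and 929 against 1111 and 1142 in AHR KO. It rose in both, with log2 changes of 0.28 ± 0.07 (adjusted p = 0.0176) and 0.33 ± 0.08 (adjusted p = 0.0188). Mvd, which decarboxylates the diphosphate, read 3387 and 3533 against 3451, 4168 and 4059 in WT, where the groups overlapped, and 2921 and 3141 against 4353 and 3898 in AHR KO. It rose in AHR KO (0.44 ± 0.09, adjusted p = 0.0103) and had a log2 change of 0.17 ± 0.08 in WT (adjusted p = 0.162). With the GC and length trend removed these calls ended, at 0.14 (adjusted p = 0.221) in WT and 0.15 (adjusted p = 0.335) in AHR KO for Mvk and at 0.17 (adjusted p = 0.382) in AHR KO for Mvd. Pmvk, Fdps and the thiolase Acat2 did not pass in either genotype, although Acat2 came close in WT at -0.18 (adjusted p = 0.0508).

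Of the 11 genes from squalene onwards, 7 fell in WT and 1 rose, where 15.7% of all genes fell and 15.1% rose. With the GC and length trend removed, Fdft1, Cyp51, Hsd17b7 and Msmo1 still fell, where 9.58% of all genes did, and Tm7sf2 still rose. Fdft1, which makes squalene, read 7958 and 7597 with DMSO and 5537, 6163 and 6226 with FICZ, a log2 change of -0.38 ± 0.07 (adjusted p = 0.00351). Cyp51 read 15404 and 14816 against 10174, 11993 and 11736, a change of -0.42 ± 0.09 (adjusted p = 0.00525). Hsd17b7, the 3-ketosteroid reductase of the pathway, read 3737 and 3665 against 2476, 2890.3 and 2834, a change of -0.44 ± 0.08 (adjusted p = 0.00341). For these genes no treated library reached a control library, and replicate 1 was the lowest of the treated.

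In the AHR KO organoids the same 3 genes had smaller values of change that did not pass. Fdft1 read 6656 and 6321 with DMSO and 6312 and 5512 with FICZ, the treated just below the controls (-0.14 ± 0.08, adjusted p = 0.246). Cyp51 read 14419.6 and 13694 against 13871 and 11642 (-0.15 ± 0.09, adjusted p = 0.312), and Hsd17b7 3285 and 3037 against 3226 and 2782 (-0.08 ± 0.09, adjusted p = 0.595). In these last 2 genes the treated and control libraries overlapped. Msmo1, the decarboxylating dehydrogenase Nsdhl, Sc5d, a sterol desaturase, and the squalene epoxidase Sqle also fell in WT, with log2 changes between -0.36 and -0.25, and had values between -0.14 and 0.00 in AHR KO, none past the test. With the GC and length trend removed the WT calls of Nsdhl, Sc5d and Sqle were lost, at -0.18, -0.21 and -0.21 (adjusted p = 0.0546, 0.0752 and 0.051). The Sqle call was also lost with quantile normalization and with a block for the replicate number. Lss, the cyclase that closes the sterol rings, and the isomerase Ebp did not pass anywhere. Dhcr7, the reductase of the last steps, had a change of 0.16 in WT (adjusted p = 0.0558) and rose in AHR KO by 0.28 ± 0.06 (adjusted p = 0.0138), a call lost with the trend removed (0.20, adjusted p = 0.0827).

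Tm7sf2 was the gene of the squalene and sterol steps that rose in WT, and it rose in AHR KO as well. It read 625 and 573 in WT with DMSO and 869, 913 and 974 with FICZ, and 513 and 551 against 801 and 681 in AHR KO. Treated and control libraries did not overlap in either genotype, and the log2 changes were 0.62 ± 0.09 (adjusted p = 0.00102) and 0.47 ± 0.10 (adjusted p = 0.0107). The gene overlaps Vps51 on the same strand, so the share of reads given to each rests on the authors' counting. Fdft1, Cyp51, Mvd, Srebf1 and Acss2 overlap an expressed gene on the other strand (Ctsb, Akap9, Gm20388, Rai1 and Gss), and whether the counting used strand is not given in the sources used here.

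**Figure D2:**
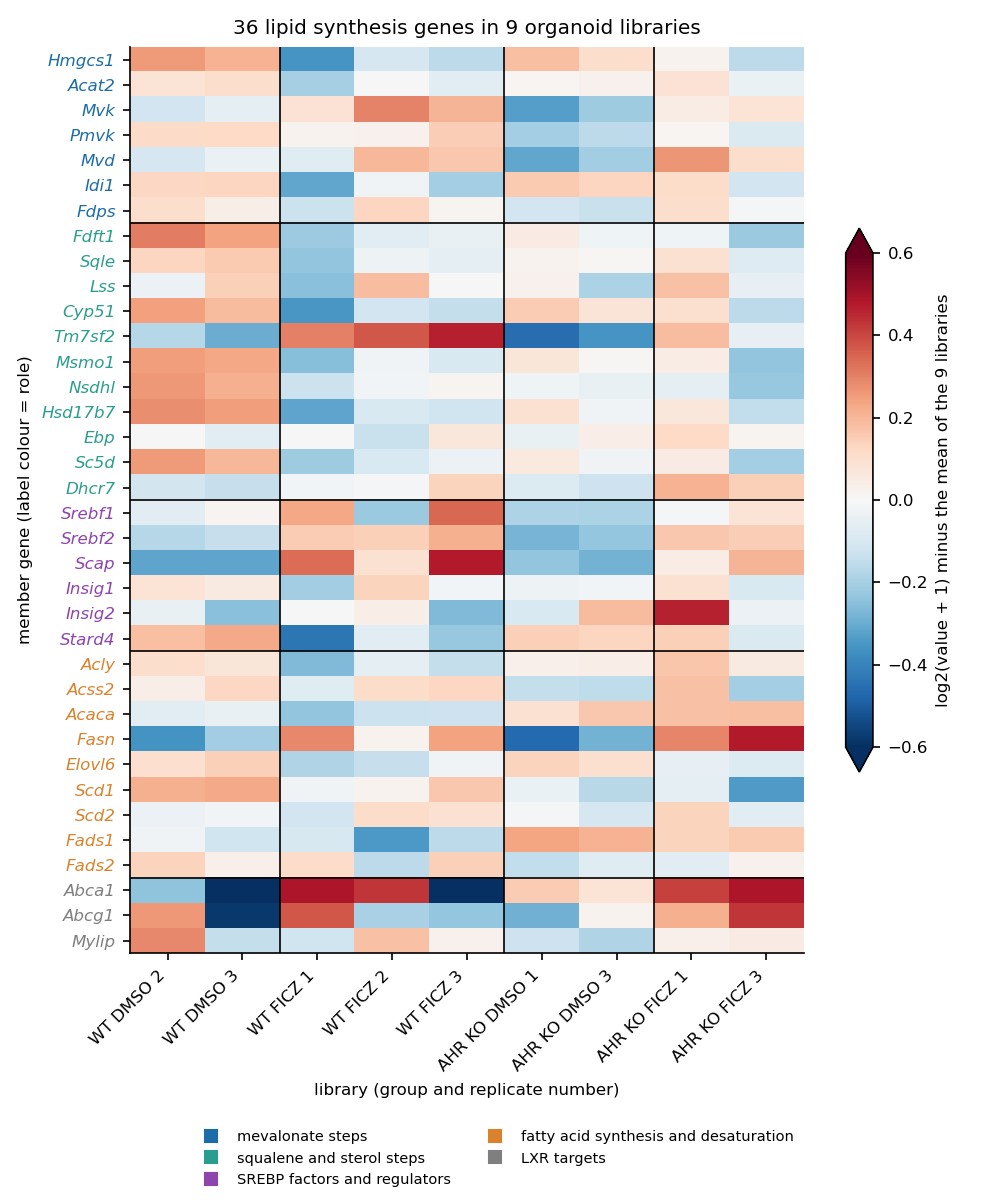
Each cell is log2(value + 1) of a member in a library minus that member's mean over the 9 libraries, with members in rows grouped by role and libraries in columns grouped by genotype and treatment. Of the 18 sterol genes, 8 have the 2 WT DMSO libraries as their highest and 9 have WT FICZ replicate 1 as their lowest. These counts were not made over all genes, so they are not shown to be particular to sterol genes. Tm7sf2, Srebf2, Scap and Fasn are higher in the FICZ libraries of both genotypes.

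The control genes did not move as one group. Srebf2, the main activator of sterol genes, read 8867 and 9065 with DMSO and 11102, 11024 and 11581 with FICZ in WT, and 8228 and 8481 against 11146 and 11051 in AHR KO. The separation was wide beside the spread in both, with log2 changes of 0.33 ± 0.05 (adjusted p = 0.000837) and 0.41 ± 0.05 (adjusted p = 0.00178). Scap read 1986 and 1987 against 3114, 2633 and 3433 in WT, and 2095 and 2033 against 2551 and 2842 in AHR KO. It rose by 0.61 ± 0.10 (adjusted p = 0.00142) and 0.38 ± 0.11 (adjusted p = 0.0307). The messages of the factor and of its escort rose in WT organoids while 9 of the 18 sterol genes fell there. Once the trend on GC content and transcript length was removed, the Srebf2 changes were 0.14 in WT (adjusted p = 0.0556) and 0.16 in AHR KO (adjusted p = 0.0927), neither past the test. Scap then still rose in WT (0.39, adjusted p = 0.00684), but its AHR KO change was 0.09 (adjusted p = 0.622).

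Srebf1, whose product favours fatty acid genes, read 2315 and 2445 with DMSO and 2843, 2074 and 3077 with FICZ in WT, and 2127 and 2122 against 2402 and 2564 in AHR KO. The WT groups overlapped and neither change passed (adjusted p = 0.45 and 0.308). Insig1, which retains the SREBPs and is itself an SREBP target, read 3860.3 and 3783 against 3157, 3991 and 3607 in WT, and 3570.2 and 3604 against 3878 and 3418 in AHR KO. Its groups overlapped in both genotypes (adjusted p = 0.439 and 0.905), as did those of its paralogue Insig2 (adjusted p = 0.758 and 0.533). Stard4, a soluble sterol carrier, read 5880.0 and 6083 against 3847, 4947 and 4432 in WT, and 5738 and 5673 against 5738 and 4883 in AHR KO. It fell in WT by 26.7% (-0.45 ± 0.10, adjusted p = 0.00713), close to the falls of Hsd17b7 and Hmgcs1, and its AHR KO change of -0.11 did not pass (adjusted p = 0.518).

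**Figure D3:**
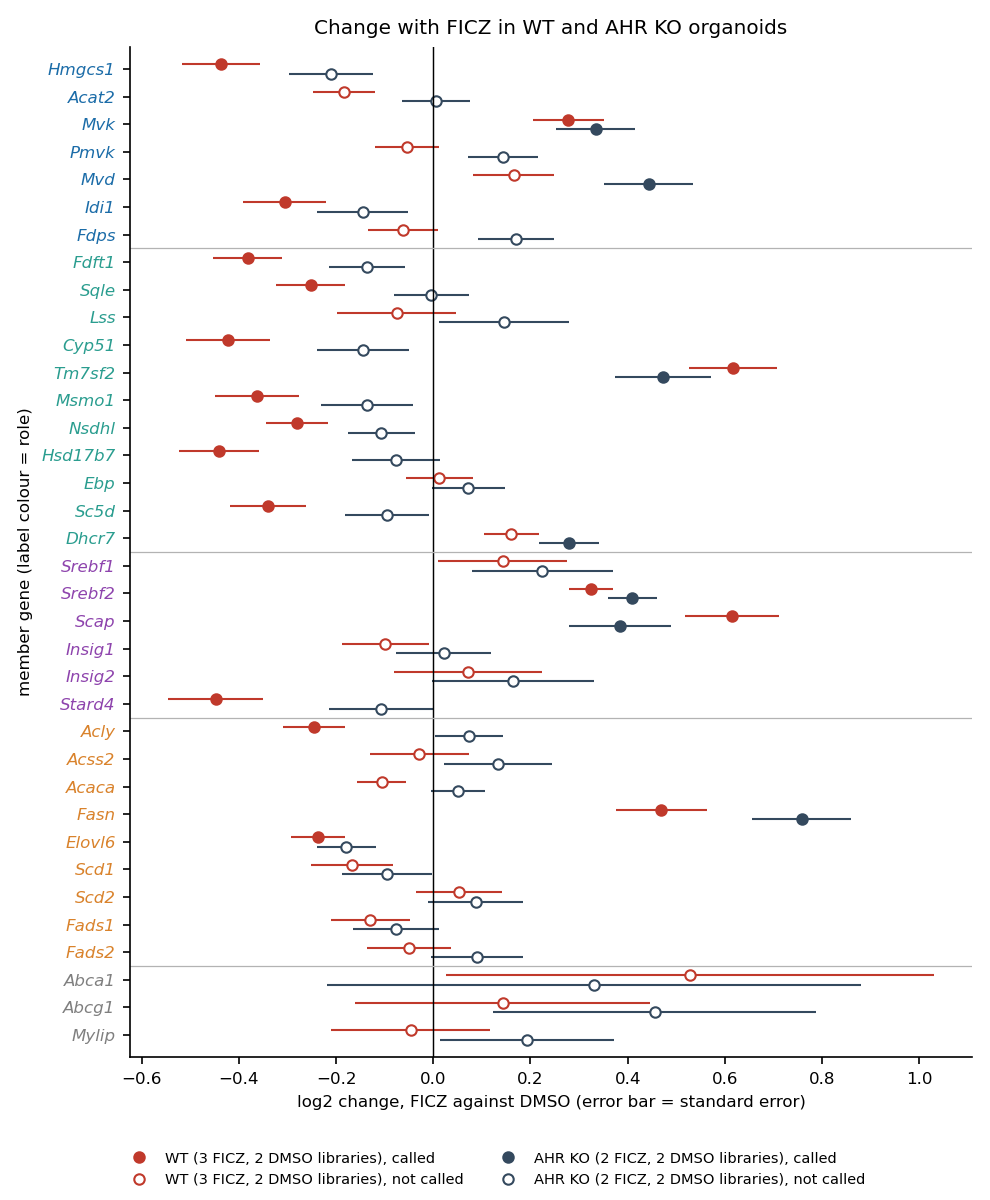
Log2 change between FICZ and DMSO (horizontal axis) for each member in WT (red) and AHR KO (dark) organoids, with standard errors, where filled points passed the test at an adjusted p of 0.05. In WT, 12 members lie below 0 as filled points, whereas in AHR KO the 7 filled points all lie above 0.

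In the AHR KO organoids 7 of the 36 genes passed and all 7 were higher, where 19.7% of all genes passed, 10.2% higher and 9.48% lower. They were Fasn, Tm7sf2, Mvd, Srebf2, Scap, Mvk and Dhcr7. No member was called lower in this fit, and of the 9 with an unadjusted p under 0.05, 2 were lower (25% of members, beside 34.3% of all genes). The 5 genes that rose in WT were all among them, which is the whole WT list and 71.4% of the AHR KO list. Over all genes, 998 rose in both, 51.7% of the WT list and 76.7% of the AHR KO list, and with the GC and length trend removed 1 member, Tm7sf2, rose in both. The 2 comparisons share no libraries. The 12 genes that fell in WT had log2 changes between -0.21 and 0.07 in AHR KO, 11 of them negative, and none passed in this fit. Over all genes 50.9% were negative there. The 12 had a median transcript GC of 44.4% and median changes of -0.35 in WT and -0.12 in AHR KO. All genes in the GC bin centred on 45% had medians of -0.12 in WT and -0.13 in AHR KO. The count of 7 was 2 without AHR KO DMSO replicate 1, where 3.3% of all genes passed, and 3 without AHR KO FICZ replicate 1, where 12.1% did. Only Fasn passed under each of the 21 other settings, and Tm7sf2, Mvd, Mvk, Dhcr7 and Scap were lost when 1 of the 4 AHR KO libraries was left out (DMSO replicate 1 for all 5).

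Of the 9 genes of fatty acid synthesis and desaturation, 1 rose and 2 fell in WT, where 15.1% of all genes rose and 15.7% fell. In WT 7 of the 9 changes were negative, beside 51.6% of all genes, and their median was -0.11, beside -0.01. In AHR KO 1 of the 9 rose and none fell, with a median of 0.07 beside -0.01. The gene that rose in both genotypes was Fasn, the fatty acid synthase. It read 11963 and 13257 with DMSO and 18710.1, 15593 and 18166 with FICZ in WT, and 11109.8 and 12606 against 18793 and 21312 in AHR KO. Treated libraries lay above controls in both, and the log2 changes were 0.47 ± 0.09 (adjusted p = 0.00455) and 0.76 ± 0.10 (adjusted p = 0.00213), the latter a rise of 69.1%. With the GC and length trend removed Fasn did not pass in WT (0.21, adjusted p = 0.0798) and rose by 0.47 in AHR KO (adjusted p = 0.0146). Its WT call was also lost without WT DMSO replicate 2. Acly, which makes cytosolic acetyl-CoA from citrate, read 12629 and 12330.5 with DMSO against 9748, 11266 and 10618 with FICZ in WT. It fell by 15.7% (-0.25 ± 0.06, adjusted p = 0.0164). In AHR KO it read 11976 and 12039.6 against 13141 and 12152, with a change of 0.07 that did not pass (adjusted p = 0.5).

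Elovl6, which elongates palmitate, fell in WT (-0.24 ± 0.06, adjusted p = 0.0097; -0.13 and 0.118 with the GC and length trend removed) and had a close value in AHR KO that did not pass (-0.18, adjusted p = 0.0626). Acetyl-CoA carboxylase (Acaca), the acetyl-CoA synthetase Acss2, the desaturases Scd1 and Scd2 and the polyunsaturated fatty acid desaturases Fads1 and Fads2 did not pass with FICZ in either genotype, with log2 changes between -0.17 and 0.13. Scd1 and Scd2 are close paralogues, so reads may be shared between them.

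None of the LXR targets passed in any of the 5 comparisons. Abca1 was near the filter, at 8.74 and 5.39 normalised counts with DMSO and 15.1, 14.5 and 4.91 with FICZ in WT, and at 11.8 and 11.2 against 14.3 and 15.1 in AHR KO. At this depth its changes carried a standard error of 0.50 and more, and no difference was detectable (adjusted p = 0.462 and 0.715). Abcg1 stood between 27.3 and 55.9 and Mylip between 106 and 148 over the 9 libraries, with no difference by treatment past the test.

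**Figure D4:**
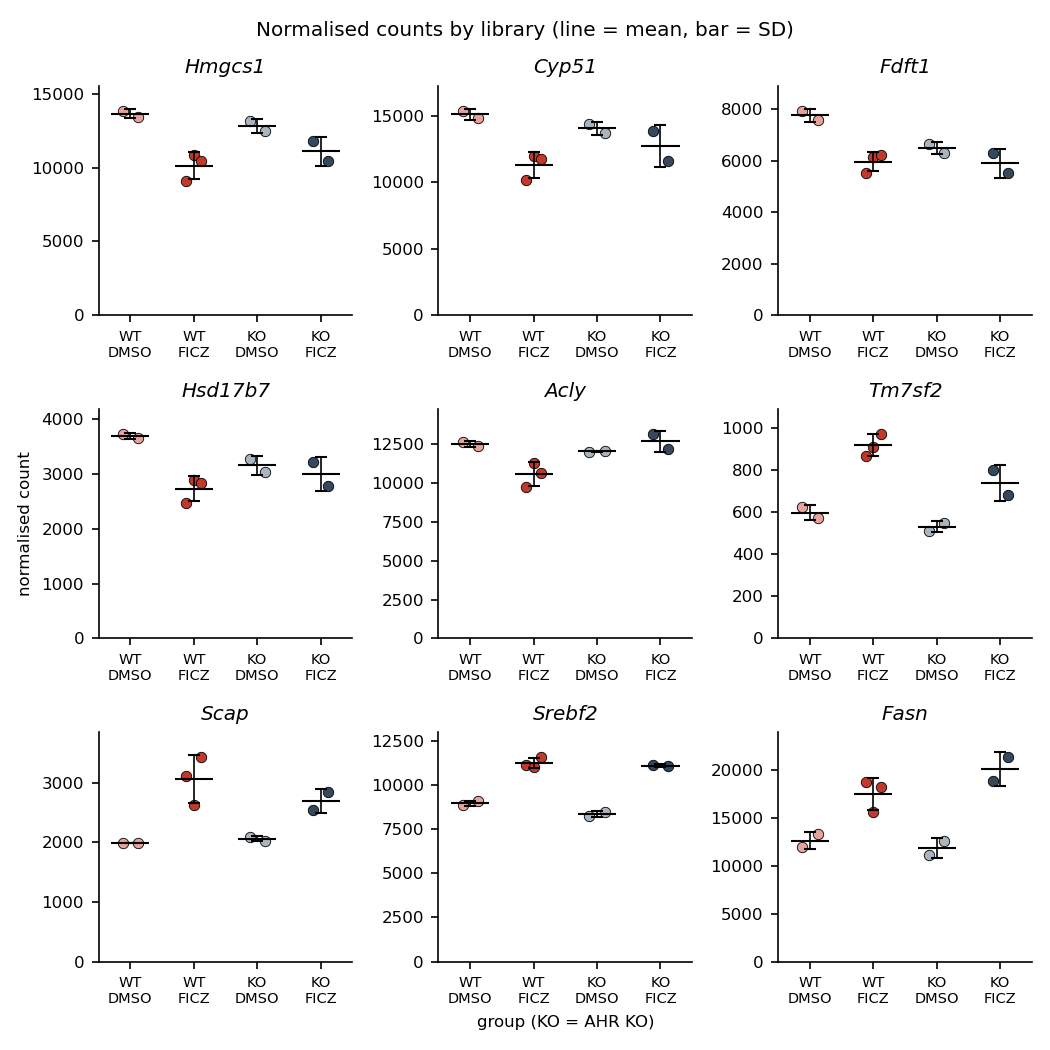
Normalised counts of 9 members in every library (vertical axes from 0), grouped by genotype and treatment, with the mean as a line and the SD as a bar. In the panels of Hmgcs1, Cyp51, Fdft1, Hsd17b7 and Acly the 3 WT FICZ libraries lie below both WT DMSO libraries, and in those of Tm7sf2, Scap, Srebf2 and Fasn the FICZ libraries lie above DMSO in both genotypes.

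Whether the response differed between the genotypes was tested by the interaction, the WT change minus the AHR KO change. No member passed in limma, where 0.447% of all genes did. At an unadjusted p under 0.05 there were 6 members (16.7%, beside 7.47% of all genes), all with the more negative change in WT, and the lowest adjusted p was 0.346, for Acly (interaction -0.32 ± 0.10). The calls in WT and their absence in AHR KO are therefore not shown to differ gene by gene. Side by side, 33 of the 36 members had a negative interaction, with a median of -0.17, whereas 52.2% of all genes had one and their median was -0.01. The 9 genes of fatty acid synthesis and the 7 of the mevalonate steps were negative throughout, and the 3 exceptions among the 36 were Tm7sf2, Scap and Abca1. Members share regulators and libraries and are not independent of each other, so this count carries no test.

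The summed level of the 18 sterol genes shows the same libraries together. It was 124016.5 and 122939.7 normalised counts in WT with DMSO, 94857 (the lowest), 110380.5 and 106535 in WT with FICZ, 114948 and 111109.7 in AHR KO with DMSO, and 117749 and 103078 in AHR KO with FICZ. The WT groups did not overlap, and the AHR KO FICZ libraries lay on either side of their controls. Leaving out each library in turn left 29 to 34 of the 36 interactions negative, with 33 and a median of -0.13 without WT FICZ replicate 1, 29 and -0.11 without AHR KO FICZ replicate 1, and 33 and -0.24 without AHR KO FICZ replicate 3.

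GC content moved with the change under FICZ. The 5 members that rose in WT had a median transcript GC of 57.9% and the 12 that fell one of 44.4%, and over all genes the medians were 55.4% for those that rose and 44.8% for those that fell. Across the 36 members, Pearson's r of GC and log2 change was 0.67 in WT and 0.74 in AHR KO, and across all genes tested 0.37 and 0.41. Genes are not independent replicates, and these values are descriptions. For the interaction r was 0.22 across members and -0.02 across all genes.

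With a smooth trend on GC and transcript length removed from each library, 9 members passed in WT, 2 higher and 7 lower, where 19.3% of all genes passed, 9.58% lower. Those that fell were Fdft1, Cyp51, Hsd17b7, Hmgcs1, Msmo1, Stard4 and Acly, with log2 changes between -0.41 and -0.25, and those that rose were Tm7sf2 (0.60) and Scap (0.39). In AHR KO, Fasn (0.47) and Tm7sf2 (0.44) passed, where 5.19% of all genes did, 2.35% higher. Fasn did not pass in WT (0.21, adjusted p = 0.0798). The part of base composition in these changes was not tested further.

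**Figure D5:**
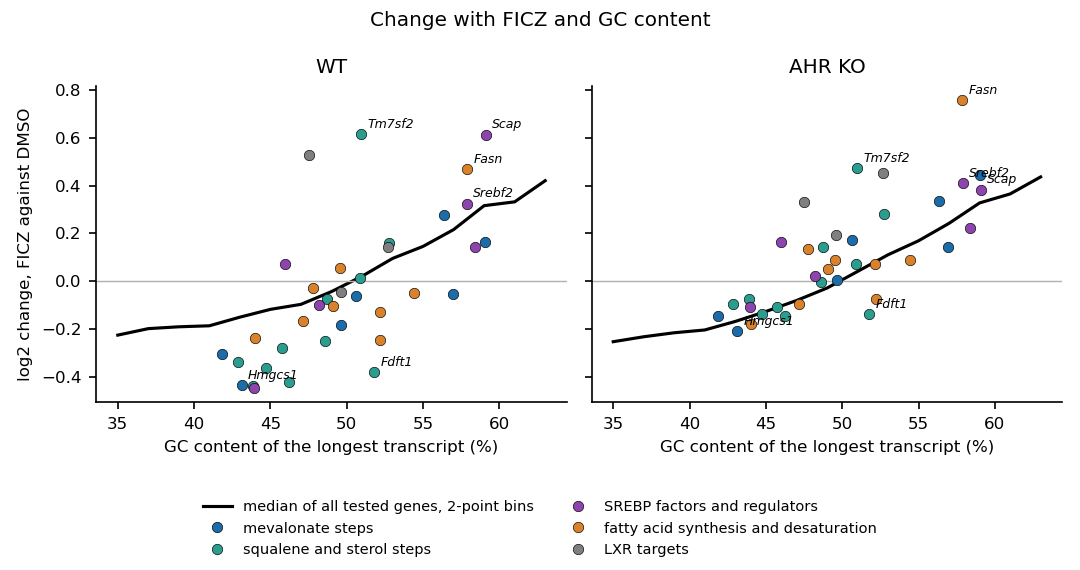
Log2 change with FICZ against the GC content of the longest transcript for the 36 members (points coloured by role), in WT and AHR KO organoids, over the median of all tested genes in bins of 2 points of GC (line). The line climbs with GC in both panels, Hmgcs1 and Fdft1 lie below it in WT, and Tm7sf2 and Fasn lie above it in both.

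Without FICZ, Pmvk, the phosphomevalonate kinase, and Nsdhl passed between AHR KO and WT under DMSO, both lower, where 9.05% of all genes passed, 4.83% lower. Pmvk read 912 and 941 in AHR KO against 1138 and 1141 in WT (-0.30 ± 0.07, adjusted p = 0.0277), and Nsdhl 5285 and 5208 against 6442 and 6232 (-0.27 ± 0.07, adjusted p = 0.0367). Each call was lost when any of the 4 DMSO libraries was left out. The count was 11 (2 higher, 9 lower) when only the 4 DMSO libraries were fitted, with Fdft1, Fdps, Msmo1, Hsd17b7, Sc5d, Acss2 and Scd1 added as lower and Acaca and Fads1 as higher. In that fit 12.7% of all genes passed, 7.49% lower. With the GC and length trend removed the count was 4, with Scd1 and Fads1 added, where 9.65% of all genes passed. Nsdhl is X-linked, and in all 9 libraries Xist was expressed and, of 4 Y-linked genes, Ddx3y and Eif2s3y were at 0, Uty between 0.88 and 7.29 and Kdm5d between 6.61 and 15.3 normalised counts. Of the 18 sterol genes, 15 had lower values in AHR KO under DMSO, beside 52.1% of all genes, with a median log2 difference of -0.18 beside -0.01 over all genes. Under FICZ the direction was not kept: 5 of the 18 were lower in AHR KO and 13 higher, where 50.8% of all genes were lower. The median was then 0.09, beside -0.004 over all genes.

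Under FICZ, 4 members passed between AHR KO and WT, 3 higher and 1 lower, where 20% of all genes passed, 9.48% higher and 10.5% lower. Acaca read 5431 and 5703 in AHR KO with DMSO and 5752 and 5778 with FICZ, against 4858 and 4938, and 4331, 4656 and 4674, in WT. Its AHR KO libraries were above the WT libraries under both treatments, and the log2 difference was 0.34 ± 0.05 under FICZ (adjusted p = 0.00107) and 0.18 under DMSO (adjusted p = 0.0693). Fads1, the delta-5 desaturase, read 951 and 932, then 886 and 900.3, in AHR KO against 794 and 744, then 755, 635 and 723, in WT, with differences of 0.35 ± 0.08 (adjusted p = 0.0138) under FICZ and 0.29 (adjusted p = 0.0715) under DMSO. Acly was higher by 0.26 ± 0.06 under FICZ (adjusted p = 0.0163) and Tm7sf2 lower (-0.31 ± 0.09, adjusted p = 0.0351). Acaca passed under each of the 19 other settings, whereas Acly and Tm7sf2 were lost with only the groups compared and Tm7sf2 with no filter. Acly was also lost without AHR KO FICZ replicate 1, Fads1 without either AHR KO FICZ library, and Tm7sf2 without AHR KO FICZ replicate 3, AHR KO DMSO replicate 3, WT FICZ replicate 2 or WT FICZ replicate 3. The count of 4 was 2 without AHR KO FICZ replicate 3 (10.3% of all genes) and 7 without WT FICZ replicate 2 (24.2%). Of the 11 epithelial markers, 3 were lower in AHR KO under DMSO (Epcam, Krt20 and Cdx2) and none higher, and under FICZ 4 were lower (these and Slc26a3) and 2 higher (Krt18 and Lgr5), and their part in these differences was not tested.

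Other lipid genes were read from the same fit. From lists of 78 genes for isoprenoid branches, SREBP processing, cholesterol uptake and storage, fatty acid activation and elongation, glycerolipid synthesis, lipid regulators and fatty acid oxidation, 72 were high enough to test. With FICZ, 20 of the 72 passed in WT (13 higher, 7 lower), 10 in AHR KO (5 higher, 5 lower) and 0 for the interaction, where 5 had an unadjusted p under 0.05 (6.94%, beside 7.47% of all genes). These shares of 27.8% and 13.9% lie below the 30.8% and 19.7% of all genes. Under DMSO 8 differed between the genotypes (2 higher in AHR KO, 6 lower) and under FICZ 23 (7 higher, 16 lower), shares of 11.1% and 31.9% beside 9.05% and 20% of all genes, with no test of the lists. The 10 isoprenoid genes gave 2 higher in WT and 3 higher and 1 lower in AHR KO, and the 10 SREBP processing genes gave 1 each way in WT and 1 lower in AHR KO.

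Acsl3, a fatty acyl-CoA synthetase of lipid droplets, fell in both genotypes. It read 7555 and 7507 against 4938, 4008 and 4734 in WT (-0.73 ± 0.08, adjusted p = 0.000381) and 5948 and 5789.7 against 3657 and 3239 in AHR KO (-0.77 ± 0.09, adjusted p = 0.00178). Acacb, the mitochondrial carboxylase that restrains fatty acid oxidation, rose in WT from 141 and 136 to 280.3, 251 and 221 (0.84 ± 0.17, adjusted p = 0.0046). In AHR KO it read 97.8 and 95.7 against 158 and 111 (adjusted p = 0.114). Ppargc1a, a coactivator of oxidative metabolism, fell in WT from 380.3 and 331 to 223, 179 and 214 (-0.79 ± 0.18, adjusted p = 0.00848), a call lost without WT DMSO replicate 2. In AHR KO, Acadm, a dehydrogenase of fatty acid oxidation, fell (1705 and 1444 against 1123 and 1061, -0.52 ± 0.11, adjusted p = 0.00977), and Agpat3, an acyltransferase of phospholipid synthesis, rose (1532 and 1802 against 2189 and 2228, 0.41 ± 0.08, adjusted p = 0.00932). Both calls were lost without AHR KO DMSO replicate 1, that of Acadm also without AHR KO FICZ replicate 3, and that of Agpat3 with the GC and length trend removed.

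Other wider genes differed between the genotypes. Nr1h4, the bile acid receptor FXR, was at 207 and 212 in AHR KO against 416 and 502 in WT under DMSO, and at 212 and 127 against 518, 462 and 539 under FICZ. The log2 differences were -1.12 ± 0.20 (adjusted p = 0.00754) and -1.62 ± 0.19 (adjusted p = 0.000201). Pparg, a nuclear receptor of lipid storage and gut epithelium, was lower by 0.56 ± 0.14 under DMSO (1146 and 983 against 1794 and 1362, adjusted p = 0.0308). Cpt1a, which admits fatty acids to mitochondria, was at 2045 and 2076 against 2592 and 2719 under DMSO (-0.37 ± 0.07, adjusted p = 0.00796). These 3 calls under DMSO were lost without either AHR KO DMSO library, and without 1 of the WT DMSO libraries (replicate 2 for Pparg, replicate 3 for Nr1h4 and Cpt1a), that of Pparg also with no filter, while that of Nr1h4 under FICZ passed under each of its 19 other settings. Under FICZ, 6 of the 12 fatty acid oxidation genes were lower in AHR KO and none higher, where 10.5% of all genes were lower, and the list was not tested. Acacb was also lower under FICZ (-0.91 ± 0.17, adjusted p = 0.00383), and Gramd1a, a sterol transporter close to the filter, was higher at 16.4 and 22.7 against 5.51, 3.44 and 4.23 (1.93 ± 0.45, adjusted p = 0.013), a call lost without AHR KO FICZ replicate 3.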

How the data were processed

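Colon organoid libraries (9) from 4 groups were analysed from 1 deposited table of normalised counts. The submitters' processing notes name STAR 2.5.2a, RSEM 1.2.31, DESeq2 1.16.1 and GRCm38, while the study's methods name a stranded library kit with ribosomal RNA removal, gene overlap counting on mm10 and DESeq2. Which of these made the deposited values, and so which annotation and scaling they rest on, is not given in the sources used here. The deposited values are therefore treated as a signal per gene, scaled by the authors between libraries (totals of 23177058 to 25033827), with replicates kept apart. Only 51.0% to 61.3% of low values lay within 0.05 of a whole number of reads, so no count model was run. Identifiers were matched to GENCODE M21 (48435 of 48795, 99.3%).

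Genes with a mean of 10 or more were tested on log2(value + 1) with limma 3.58.1 in R 4.3.3 (group means over all 9 libraries, empirical Bayes with trend, two-sided), and p-values were adjusted by Benjamini-Hochberg over all 12741 genes and called under 0.05. Fold changes are on the log2(value + 1) scale and understate those of low genes. The 36 members and all other lists were chosen with earlier results of these data known. Per-library values were given for Srebf1, Srebf2, Insig1, Abca1 and up to 6 called members with the largest change in each comparison, and for up to 3 called genes a comparison of the wider lists. Those of Cyp51 and Fdft1 were given as well, chosen after their values were seen. Alternatives were other pseudocounts and filters, TMM and quantile scaling, fits of only the groups compared, robust moderation, a replicate block, removal of a GC and length spline, and leaving out each library. The procedure was tested on simulated data.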

Additional observations from a re-analysis of the deposited data

How the results depend on the processing

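In WT, FICZ against DMSO gave 17 members, 9 with the GC and length trend removed and 7 with the replicate block as well. Of all 12741 genes, 3928, 2457 and 1733 passed under these settings. The comparison gave 9 to 20 members when each library was left out in turn, beside 1990 to 4133 of all genes. In AHR KO the comparison gave 7 members, then 2 and 1 under these same settings, and 2 to 8 leaving out each library. Of all genes, 2509, then 661 and 514 passed there, and 420 to 2961 leaving out each library. AHR KO against WT under DMSO gave 2 members, 1 with no filter and 1 with quantile normalization. It gave 11 with only the groups compared, 4 with the trend removed, and 0 to 4 leaving out each library. Of all genes, 1153 passed in the main fit, 853 of 23637 with no filter and 1064 with quantile normalization. With only the groups compared 1624 passed, with the trend removed 1230, and leaving out each library 389 to 1465. Under FICZ the genotypes differed in 4 members, then 2 with only the groups compared and 2 to 7 leaving out each library. Of all genes, 2544 passed there, then 1892, and 1312 to 3084 leaving out each library. The interaction gave 0 members under every setting run, with 29 to 34 of 36 negative. The cause of these shifts was not tested beyond the settings themselves, and fewer libraries leave less power.

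Other pseudocounts, filters and scalings kept the remaining counts within 1.5 times. Of the 30 member calls, 8 held under every setting and none changed sign. Deviations of libraries with the same replicate number correlated at 0.042 and 0.050 in WT and 0.035 in AHR KO, and the numbers were not taken to pair the samples. With 2 DMSO libraries a genotype the deviations mirror each other, so these values cannot exclude pairing. With the replicate block 17 members passed in WT (6 higher, 11 lower), where 3138 of all 12741 genes did. The WT call of Sqle was lost. In AHR KO 8 members passed, where 2417 of all genes did, the added call being a lower Hmgcs1 (-0.21, adjusted p = 0.0365). For the wider genes these settings were added after seeing the data, and with the block and the trend removed together the WT call of Acacb was lost (adjusted p = 0.0761). With 2 or 3 libraries a group, changes under about 0.2 on the log2 scale mostly did not pass, and for Abca1 low counts set the limit.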
